A study of Mus musculus with 53 samples.

Results

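Purkinje cells are the only output neurons of the cerebellar cortex, and their RNA can be followed in bulk tissue through genes that they transcribe strongly. The genes described here are Itpr1, Calb1, Homer3, Rgs8 and Gng13, chosen by symbol from a list of 7 Purkinje cell genes, of which 5 are among the 12372 genes of the count table. The other listed genes, Pcp2 and Ppp1r17, were not analysed here. The question was how the 5 genes were expressed in 4 brain regions and whether they differed between wild-type mice and a mouse model of SCA3 (Machado-Joseph disease), above all in cerebellum, the tissue whose failure gives the spinocerebellar ataxias their name.

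The SCA3 animals were hemizygous MJD84.2 mice, which carry the whole human ATXN3 gene, its CAG repeat expanded, under its own promoter, so that mutant ataxin-3 is not limited to Purkinje cells. Controls were wild-type mice on the same C57BL/6 background, bred by crossing SCA3 with wild-type animals. All were male and were sampled at 17.5 months, or 74 to 77 weeks by the labels. From 8 wild-type and 6 SCA3 mice came 53 libraries: 7 wild-type and 6 SCA3 from cerebellum, 8 and 6 from brainstem, 7 and 6 from cortex, and 8 and 5 from striatum. Each library is 1 mouse and 1 region, and RNA came from a small dissected piece of the region.

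A Purkinje cell receives glutamate from parallel fibres, and metabotropic glutamate receptors signal through Gq and phospholipase C to inositol trisphosphate, which releases calcium from internal stores. Itpr1 encodes the type 1 inositol trisphosphate receptor, the channel of that release, Calb1 encodes the cytosolic calcium buffer calbindin, and Homer3 encodes a postsynaptic scaffold that ties metabotropic receptors to the inositol trisphosphate receptor. Rgs8 encodes a regulator that speeds the switching off of G protein signals, and Gng13 encodes a G protein gamma subunit. Mutations of ITPR1 in humans cause other spinocerebellar ataxias. Several of these genes are also used outside the cerebellum, calbindin and the type 1 receptor for example in the projection neurons of the striatum.

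On the mouse genome build GRCm38 the genes lie, in RefSeq annotation, at chr6:108213083-108551116 (Itpr1), chr4:15881264-15906709 (Calb1), chr8:70282880-70294361 (Homer3), chr1:153652959-153697669 (Rgs8) and chr17:25717172-25719102 (Gng13), all on the plus strand. Because the 5 genes moved together from library to library within cerebellum, the bases just before the first annotated start are shown for the 3 with a RefSeq promoter window (250 bases before a transcript start), up to the first base of the gene in either annotation. They cover chr1:153652787-153652958 for Rgs8, chr8:70282749-70282826 for Homer3 and chr17:25716922-25717170 for Gng13, and capitals mark matches to the E-box CANNTG.
Rgs8: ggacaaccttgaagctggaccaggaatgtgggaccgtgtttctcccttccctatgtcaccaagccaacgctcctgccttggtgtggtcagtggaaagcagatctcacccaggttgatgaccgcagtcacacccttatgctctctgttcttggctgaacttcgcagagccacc
Homer3: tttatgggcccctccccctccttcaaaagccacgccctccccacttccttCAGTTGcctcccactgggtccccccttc
Gng13: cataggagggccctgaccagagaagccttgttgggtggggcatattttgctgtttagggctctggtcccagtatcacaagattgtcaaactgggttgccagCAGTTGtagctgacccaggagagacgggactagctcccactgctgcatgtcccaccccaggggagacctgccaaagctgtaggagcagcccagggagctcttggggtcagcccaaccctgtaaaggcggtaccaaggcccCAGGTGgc
Only 1 window of each gene was searched, of 3 for Rgs8, 1 for Homer3 and 2 for Gng13. An E-box match was found in those of Homer3 and Gng13 and not in that of Rgs8. Of the 32851 mouse promoter windows of the same length, 66.2% held one. The ROR element AGGTCA, searched on both strands like the E-box, had 1 match, in the Homer3 window 157 bases before the transcript start and outside the bases shown, and 14% of all windows held it. The GC box GGGCGG was searched too and matched only in the Homer3 window, outside the bases shown, and 32.7% of all windows held it. Searches for an EBF site and a TATA box found no match in the 3 windows. These matches describe letters and not binding.

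Depth was 31680939 to 76703758 counts per library, and the fewest reads for any of the 5 genes in any library were 87 (Gng13 in a wild-type striatum). RNA integrity numbers (RIN) were 7.5 to 8.2 in wild-type and 7.5 to 8.0 in SCA3 cerebellum, but 6.3 to 7.6 in wild-type against 7.4 to 8.0 in SCA3 brainstem, and as low as 5.7 in striatum. The levels below are CPM, counts scaled to 1000000 per library after TMM normalisation. The granule cell gene Cbln3 marked the cerebellar libraries, with at least 890.4 CPM in each against at most 68.3 CPM elsewhere. Some markers of other cell types had different point values in the cerebellar groups, with no call in the fit over all libraries. The 12 oligodendrocyte markers together gave 3507 to 5628 CPM in wild-type and 3137 to 4843 CPM in SCA3 cerebellum, and 8 of the 12 had lower point values in SCA3, 4 of them at an unadjusted p under 0.05 and none at FDR under 0.05. The choroid plexus gene Ttr ranged from 1.74 to 2000 CPM in wild-type cerebellum (median 123.5) and from 609.7 to 1877 CPM in SCA3 (median 1075), and the 4 choroid plexus markers summed to 147.2 to 3313 CPM and 1118 to 3040 CPM. All 8 endothelial markers had lower point values in SCA3 cerebellum (median log2 difference −0.24), with none called.

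In wild-type mice the 5 genes were most abundant in cerebellum, but by very different margins, and for Homer3 and Gng13 the other regions held little. This direction is what the list was made for and is given as a description. Homer3 was 183 ± 32.9 CPM in cerebellum (SD, n = 7), 10.76 ± 2.51 CPM in brainstem (n = 8), 7.43 ± 1.53 CPM in striatum (n = 8) and 6.08 ± 0.688 CPM in cortex (n = 7). Cerebellum thus held 88.3% of the summed regional means and was 17.0-fold above brainstem, the next region. Gng13 was 76.8 ± 9.38 CPM in cerebellum, 7.95 ± 2.67 CPM in cortex, 6.28 ± 2.85 CPM in striatum and 5.79 ± 2.26 CPM in brainstem, a 9.66-fold margin over cortex. Rgs8 was 1363 ± 257.2 CPM in cerebellum and 251.2 ± 60.6 CPM in striatum, a margin of 5.43-fold, with 162.2 ± 26.3 CPM in cortex and 144.8 ± 69.2 CPM in brainstem.

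The calcium genes had the smallest margins. Calb1 was 867 ± 125 CPM in cerebellum, 195.7 ± 59.7 CPM in striatum, 150 ± 43.9 CPM in cortex and 102.1 ± 39.8 CPM in brainstem, so cerebellum stood 4.43-fold above striatum. Itpr1 was 4062 ± 917.6 CPM in cerebellum, 1016 ± 421.1 CPM in striatum, 811.8 ± 251.4 CPM in cortex and 195.5 ± 119.8 CPM in brainstem, a margin of 4.00-fold over striatum and of 20.8-fold over brainstem. Per kilobase of exon, the cerebellar level was highest for Itpr1 (412 CPM per kb), followed by Calb1 (205), Rgs8 (161), Gng13 (107) and Homer3 (69.9). The last 2 of these levels are the least certain, because 55.5% of the Gng13 exon bases and 33.4% of the Homer3 exon bases in GENCODE overlap exons of a gene on the other strand, Chtf18 and Ddx49, and counting ignored strand. Ddx49 itself was 18.4 ± 1.53 CPM in wild-type cerebellum and 17.2 to 19.1 CPM on average in the other regions.

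The order of the other regions differed from gene to gene. Between pairs of regions, 23 of 30 tests passed FDR 0.05 (edgeR likelihood ratio test), where 62.6% of all gene and pair tests did. Of the 15 that involve cerebellum all passed, a direction the choice of genes fixes, and of the 15 among brainstem, cortex and striatum 8 passed, where 54.6% of all genes' tests did. Brainstem was the lowest region for Itpr1, 4.15-fold below cortex (FDR 1.16e-14), and the second highest for Homer3, 1.45-fold above striatum (FDR 0.00013). Striatum was 1.55-fold above cortex for Rgs8 (FDR 0.0096), and cortex and brainstem did not differ beyond their spread for this gene (FDR 0.49). Striatum and cortex did not differ beyond their spread for Itpr1 (FDR 0.33), Calb1 (FDR 0.14), Homer3 (FDR 0.093) or Gng13 (FDR 0.26), although Calb1 passed without mouse 7267059 (FDR 0.021). Calb1 was 1.47-fold lower in brainstem than in cortex (FDR 0.014), a call lost without mouse 7267055 (FDR 0.075) or mouse 7267058 (FDR 0.11). Gng13 did not pass in any pair outside cerebellum, although brainstem against cortex came to FDR 0.076 and passed without mouse 7267055 (FDR 0.034) or mouse 9083373 (FDR 0.029).

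**Figure D1:**
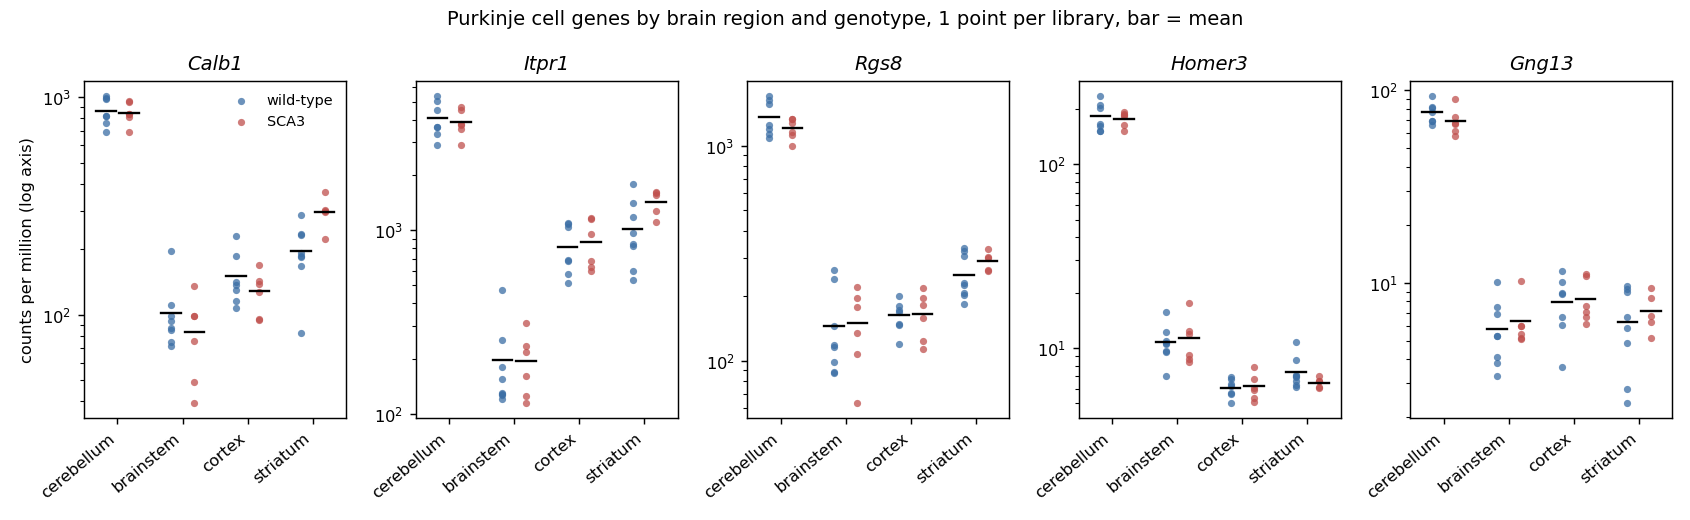
Level of each of the 5 genes in every library, in CPM on a log axis, by brain region, with wild-type in blue, SCA3 in red and a bar at each group mean. Cerebellum is above every other region for each gene (Homer3 183 against at most 10.76 CPM in wild-type means), and in cerebellum the SCA3 and wild-type points overlap.

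In cerebellum none of the 5 genes was called different between SCA3 and wild-type mice (edgeR likelihood ratio test over all genes, FDR under 0.05). The count of 0 of 5 stands beside 0.0647% of all genes called (8 of 12372), and none of the 5 reached an unadjusted p under 0.05, which 1.66% of all genes did. All 5 point values were below 0, by 0.04 to 0.18 on the log2 scale, where 52.8% of all genes were below 0. The ranges of the groups overlapped for each gene. No change was thus called, and bulk tissue could not tell a change in Purkinje cell number from one in RNA per cell.

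Among the calcium genes, Itpr1 in wild-type cerebellum was 2923 CPM at its lowest, 3630 at the median and 5347 at its highest, and in SCA3 cerebellum 2905, 3765 and 4663. Of the 6 SCA3 libraries 4 were above the wild-type median. The difference was −0.07 on the log2 scale (SE 0.27, FDR 0.9999). Calb1, whose protein is the classical stain for Purkinje cells, ran from 689.8 through 819.8 to 1009 CPM in wild-type and from 692.6 through 835.1 to 956.1 CPM in SCA3. Here too 4 of 6 SCA3 libraries were above the wild-type median, and the difference was −0.04 (SE 0.22, FDR 0.9999). The scaffold gene Homer3 ran from 152 through 166.6 to 234.4 CPM in wild-type and from 151.4 through 183.8 to 192.1 CPM in SCA3, a difference of −0.05 (SE 0.14, FDR 0.9999). Its lowest libraries were nearly level in both groups, and the 3 highest belonged to wild-type mice.

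The G protein genes had the lowest point values. Rgs8 was 1079 CPM at its lowest, 1240 at the median and 1693 at its highest in wild-type cerebellum, and 997, 1216 and 1335 CPM in SCA3. The mean was 1202 ± 135.2 CPM in SCA3 (n = 6) against 1363 ± 257.2 CPM in wild-type (n = 7), a log2 difference of −0.18 (SE 0.22, FDR 0.9999), with 3 of 6 SCA3 libraries below the wild-type median. Gng13 ran from 65.95 through 77.25 to 92.99 CPM in wild-type and from 58.19 through 67.5 to 89.59 CPM in SCA3, a difference of −0.14 (SE 0.25, FDR 0.9999). For Gng13, 5 of 6 SCA3 libraries were below the wild-type median, the largest such number of the 5 genes.

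How closely a cerebellar change is known depends on the spread used. The fit over all 53 libraries gives each gene 1 dispersion for all regions, and its 95% intervals for the fold (SCA3 over wild-type) were wide, 0.660 to 1.37 for Itpr1 and 0.655 to 1.19 for Rgs8. In a fit of the 13 cerebellar libraries alone the intervals were narrower: 0.779 to 1.17 for Itpr1, 0.850 to 1.13 for Calb1, 0.839 to 1.13 for Homer3, 0.752 to 1.04 for Rgs8 and 0.791 to 1.04 for Gng13. None of the 5 was called there either (FDR 0.9999 each, with 0.17% of all genes called). The mouse numbers fall into 3 series, those of mice 7267054, 9082853 and 9083371, and in that order the Rgs8 difference was −0.25 (2 SCA3 and 2 wild-type libraries), −0.11 (1 and 1) and −0.12 (3 and 4). The Gng13 difference was −0.23, −0.18 and −0.07 in the same order, while for Calb1 it was 0.11, −0.14 and −0.07 and for Itpr1 −0.12, −0.01 and −0.03.

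**Figure D2:**
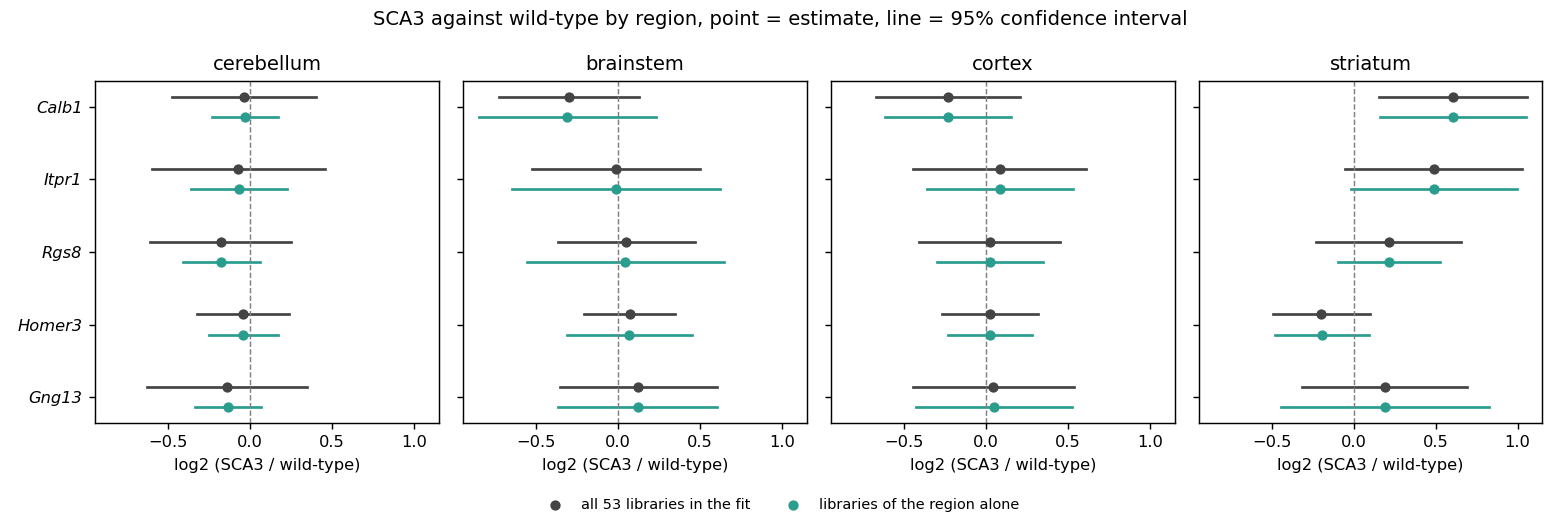
Log2 fold change of SCA3 over wild-type for the 5 genes in each region, with the estimate as a point and its 95% confidence interval as a line, from the fit of all 53 libraries (dark) and from the libraries of the region alone (green). In cerebellum all 10 intervals cross 0, and in striatum those of Calb1 lie above 0 before adjustment (unadjusted p 0.0075, FDR 0.072).

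In the fit over all libraries the genes around them gave no call either. Of 38 further genes known for Purkinje cell expression 34 were tested, and none was called in cerebellum, with 23 of 34 point values below 0 and a median of −0.06 beside −0.004 over all genes. Of 35 genes of the metabotropic glutamate, inositol trisphosphate and calcium store pathway none was called (24 below 0, median −0.04), and likewise none of 25 tested regulators of G protein signalling and gamma subunits (17 below 0, median −0.08), among which 2 had an unadjusted p under 0.05, or of 25 genes of cyclic GMP signalling and protein phosphatases (19 below 0, median −0.02). Cacna1g, a T-type calcium channel, was 349.4 ± 39.6 CPM in SCA3 and 364.8 ± 67.5 CPM in wild-type cerebellum (log2 difference −0.06, FDR 0.9999). Plcb4, a phospholipase C beta isoform of many Purkinje cells, was 310.1 ± 30.2 against 309.8 ± 35.1 CPM. Gpsm2, a modulator of Gi signalling, had a log2 difference of 0.25 (SE 0.11, unadjusted p 0.025, FDR 0.9999).

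Within cerebellum the 5 genes varied together across mice. Over the 13 libraries, after the genotype means were subtracted, Pearson's r between pairs of the 5 genes was 0.67 (Calb1 and Gng13) to 0.95 (Itpr1 and Rgs8), with a median of 0.83 over 10 pairs. In the other regions the median was 0.23 (brainstem, 14 libraries), −0.05 (cortex, 13) and 0.30 (striatum, 13). Wild-type mice 9083371 and 7267059 had the highest mean of the 5 genes in cerebellum, 0.33 and 0.29 above the mean of all cerebellar libraries on the log2 scale. SCA3 mouse 9082853 had the lowest, −0.33, and held the lowest SCA3 value for each of the 5 genes. Wild-type libraries ran from −0.24 to 0.33 along this range and SCA3 libraries from −0.33 to 0.17, so the genotypes overlapped over most of it.

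The co-varying level was shared with other cell type markers. The mean of the 5 genes followed that of the 34 other Purkinje cell genes (r 0.99, rho 0.99, and r 0.99 without the 2 libraries farthest out) and rose with 8 granule cell markers (r 0.81, rho 0.74, and 0.78 without those 2). The 35 genes of the glutamate and calcium store pathway went the same way (r 0.94, rho 0.92, and 0.92), and 11 astrocyte and Bergmann glia markers less closely (r 0.69, rho 0.73, and 0.48). It was inversely related to 12 oligodendrocyte markers (r −0.87, rho −0.73, and −0.81), to the 25 G protein genes (r −0.93, rho −0.85, and −0.97), to 10 thalamus markers (r −0.90, rho −0.86, and −0.86) and to 11 markers of striatal projection neurons (r −0.90, rho −0.88, and −0.92). The last 11 summed to 370.3 to 458.8 CPM in the cerebellar libraries, although Drd1 among them was at most 1.1 CPM. It was weakly related to 4 choroid plexus markers (r 0.20, rho 0.26, and 0.26). All points share the library and its scaling, so these values are descriptions. Among the non-members most like the 5-gene mean over the cerebellar libraries were Inpp5a, an inositol trisphosphate phosphatase (r 0.97), Slc1a3, the glutamate transporter of Bergmann glia (r 0.97), Arhgef33 (r 0.97) and Mtss1, a regulator of the actin cytoskeleton (r 0.97). Over all 53 libraries they were Stk17b (r 0.99), Sbk1 (0.98), Gdf10 (0.98), Grin2c, an NMDA receptor subunit of cerebellar granule cells (0.98), and Ppm1d (0.98).

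**Figure D3:**
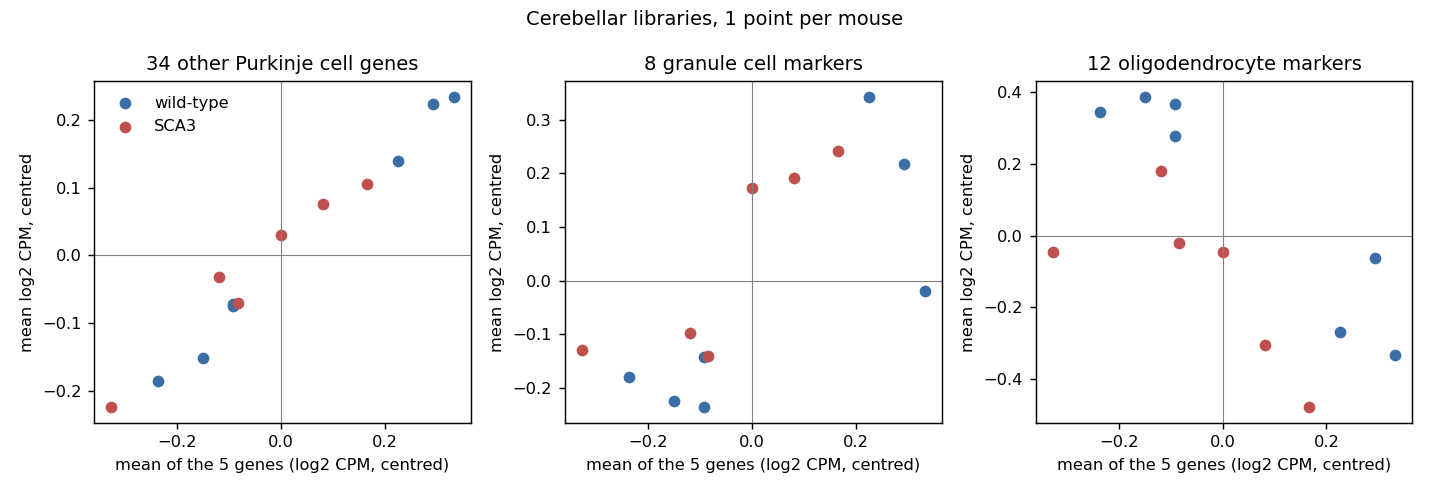
Mean log2 CPM of the 5 Purkinje cell genes in each cerebellar library, centred on the mean of the 13 libraries (x axis), against the centred mean of 34 other Purkinje cell genes, 8 granule cell markers and 12 oligodendrocyte markers (y axes), with wild-type in blue and SCA3 in red. The libraries rise together in the first panel (r 0.99 after subtracting genotype means) and fall in the last (r −0.87), with SCA3 mouse 9082853 at the far left.

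Holding these levels fixed moved the cerebellar differences, in fits of the cerebellar libraries that were added after the data had been seen. With the oligodendrocyte marker mean as a covariate, the 5 differences became −0.15 (Calb1) to −0.31 (Rgs8), and Rgs8 was called (FDR 0.027, 1 of 5 genes, beside 0.897% of all genes), while Gng13 was at −0.26 (FDR 0.053). With the mean of the other Purkinje cell genes as a covariate, Rgs8 was at −0.11 (unadjusted p 0.025, FDR 0.37), Gng13 at −0.10 (FDR 0.77), and Itpr1, Calb1 and Homer3 at 0.01, 0.01 and 0.02 (FDR 0.9992 each). The oligodendrocyte markers were themselves lower in SCA3 cerebellum for 8 of 12 genes in point values. None was called in the fit over all libraries, but 1 of the 12 was in the cerebellar libraries alone, beside 0.17% of all genes. The part of cell composition in the Rgs8 value was not tested further. The gene lists around the 5 genes also gained calls in these fits. With the oligodendrocyte covariate 1 of the 34 other Purkinje cell genes and 1 of the 35 pathway genes were called lower and 3 of the 25 G protein genes higher, beside 0.242% of all genes lower and 0.655% higher. With the covariate of the other Purkinje cell genes, which is made from the list of 34 itself, 1 of the 34 and 1 of the 25 G protein genes were called higher and 1 of the 25 genes of cyclic GMP signalling and phosphatases lower, beside 0.533% of all genes higher and 1.19% lower.

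In brainstem, none of the 5 genes was called, beside 1.92% of all genes (238 of 12372). Calb1 was 39.24 CPM at its lowest, 87.08 at the median and 135.5 at its highest in SCA3 brainstem, and 72.05, 90.06 and 195.7 CPM in wild-type, a log2 difference of −0.30 (SE 0.22, FDR 0.58). It was −0.50 when SCA3 mouse 9083513 was left out and −0.10 when wild-type mouse 7267059 was, the lowest and highest of the values with 1 mouse left out, and it was −0.16 with SCA3 mouse 7267056 left out and −0.20 with SCA3 mouse 9082853 left out. In the number series of mice 7267054 and 9082853 the Calb1 difference was −0.83 and −1.01, and in that of mouse 9083371 it was 0.20. Itpr1 ran from 114.5 through 189.7 to 312.8 CPM in SCA3 and from 120.9 through 142.8 to 471.8 CPM in wild-type (log2 difference −0.01, SE 0.26, FDR 0.99). Rgs8 ran from 63.5 through 156.3 to 219 CPM in SCA3 and from 87.3 through 117.3 to 264.2 CPM in wild-type (0.05, FDR 0.96). Homer3 was 8.33 to 17.5 CPM in SCA3 and 7.01 to 15.75 CPM in wild-type (0.07, FDR 0.88), and Gng13 was 5.13 to 10.26 CPM and 3.29 to 10.07 CPM (0.12, FDR 0.88).

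A pair of brainstem libraries stood apart by the granule cell gene Cbln3, which was 38.1 CPM in wild-type mouse 9083373 and 68.3 CPM in SCA3 mouse 7267054, while the next highest brainstem libraries held 5.92 CPM (wild-type) and 4.79 CPM (SCA3). The same 2 libraries had the highest Itpr1 (471.8 and 312.8 CPM), Homer3 (15.75 and 17.5 CPM) and Gng13 (10.07 and 10.26 CPM) of all brainstem libraries. Calb1 was not raised in them. Rgs8 was highest in mouse 9083373 (264.2 CPM) but 134.4 CPM in mouse 7267054, and it was also high in wild-type mouse 7267055 (240.3 CPM) and in SCA3 mice 9083515 and 9083514 (219 and 196.1 CPM). The 10 thalamus markers summed to 931.8 CPM in mouse 9083373, 1006 CPM in 7267055, 1051 CPM in 9083515 and 1008 CPM in 9083514, the 4 highest sums of the brainstem libraries, against medians of 680 CPM in wild-type and 715.9 CPM in SCA3. Mouse 7267054 had the lowest sum, 538.7 CPM. The part of thalamus tissue in the Rgs8 values was not tested. Without both libraries, in a fit added after the data had been seen, the differences were −0.39 for Calb1 (FDR 0.47), 0.13 for Itpr1 (FDR 0.86), 0.26 for Rgs8 (FDR 0.63), 0.01 for Homer3 (FDR 0.99) and 0.09 for Gng13 (FDR 0.91). RIN also differed between the brainstem groups, as given with the depths, and so did oligodendrocyte RNA. Its 12 markers summed to 10790 to 22360 CPM in wild-type and 9788 to 16460 CPM in SCA3. Of the 12, 4 were called lower, beside 1.15% of all genes. In the brainstem libraries alone 6 were called, beside 3.17% of all genes. None of the 5 genes was called with RIN as a covariate, where Calb1 was at −0.24 (FDR 0.84), or with libraries of RIN 7 or above, where it was at −0.10 (FDR 0.95). The part of oligodendrocyte RNA in these values was not tested.

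**Figure D4:**
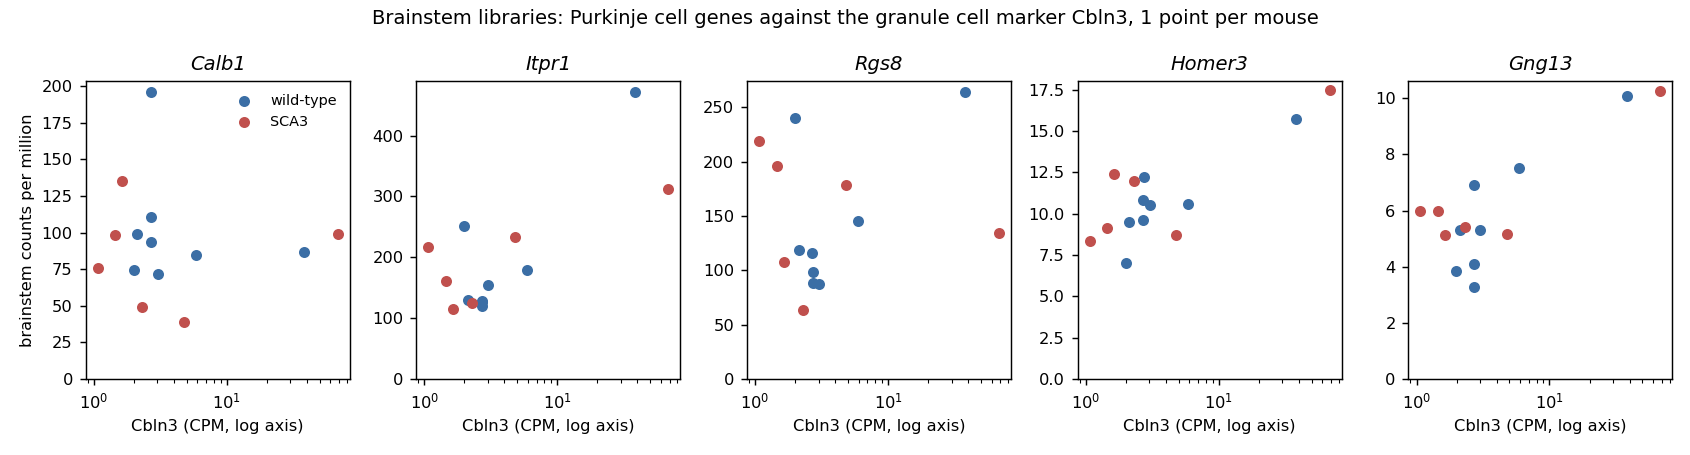
Brainstem level of each of the 5 genes (CPM, y axes) against the granule cell marker Cbln3 (CPM, log x axis), 1 point per mouse, with wild-type in blue and SCA3 in red. The libraries of wild-type mouse 9083373 (38.1 CPM Cbln3) and SCA3 mouse 7267054 (68.3 CPM) lie at the right and hold the highest Itpr1, Homer3 and Gng13.

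In cortex none of the 5 genes was called, beside 0.154% of all genes (19 of 12372). Calb1 ran from 94.45 through 132.3 to 169.9 CPM in SCA3 and from 107.2 through 136.9 to 231.1 CPM in wild-type, a log2 difference of −0.23 (SE 0.22, FDR 1). Leaving out 1 mouse gave values from −0.32 (SCA3 mouse 9082853) to −0.09 (wild-type mouse 7267058), with −0.15 for SCA3 mouse 9083514. The differences of Itpr1 (0.08), Rgs8 (0.02), Homer3 (0.02) and Gng13 (0.05) were smaller than their standard errors of 0.15 to 0.27. Gng13 ran from 3.65 to 11.6 CPM in wild-type and 6.08 to 11.1 CPM in SCA3.

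Striatum was the region where the calcium genes had their largest differences, and there their point values were higher in SCA3, although none of the 5 genes passed FDR 0.05, beside 7.54% of all genes (933 of 12372). Calb1 was 302.5, 366.6, 300.9, 223.5 and 295.6 CPM in the 5 SCA3 libraries (mice 7267054, 7267056, 9082853, 9083514 and 9083515), and 82.6 CPM at its lowest, 188.8 at the median and 285.9 at its highest in the 8 wild-type libraries. All 5 SCA3 libraries were above the wild-type median and 4 of them above every wild-type library. The log2 difference was 0.61 (SE 0.23, unadjusted p 0.0075, FDR 0.072), a fold with a 95% interval of 1.11 to 2.08. It passed without wild-type mouse 9082857, whose library held the highest wild-type value (FDR 0.025, in a fit that called 14.8% of all genes, with a range of 0.025 to 0.22 over the 14 mice left out in turn), and in the number series of mice 7267054, 9082853 and 9083371 it was 1.22, 0.07 and 0.34.

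Itpr1 was 1608, 1560, 1102, 1278 and 1584 CPM in the SCA3 striata, in the same order of mice, against 534.7, 901.9 and 1782 CPM at the wild-type lowest, median and highest. Again all 5 SCA3 libraries were above the wild-type median, but the highest library was wild-type, and the log2 difference of 0.49 (SE 0.28) had FDR 0.26. Rgs8 was 299.3, 303.1, 260, 264.7 and 329.2 CPM in SCA3, all above the wild-type median of 226.6 CPM and all below the wild-type maximum of 334.7 CPM (log2 difference 0.21, FDR 0.59). Homer3 was 6.57, 6.10, 7.06, 6.07 and 6.59 CPM in SCA3 and 6.09 to 10.7 CPM in wild-type (−0.20, FDR 0.44). Gng13 was 9.38, 8.32, 5.16, 6.24 and 6.75 CPM in SCA3 and 2.37 to 9.64 CPM in wild-type (0.19, FDR 0.69).

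Cell type markers also varied among the striatal pieces. The 11 striatal projection neuron markers summed to 6746 to 9976 CPM in SCA3 and 2590 to 10910 CPM in wild-type, with 11 of 11 point values above 0 and none called. The 10 thalamus markers summed to 191.4 to 383.5 CPM in SCA3 and 194.1 to 2183 CPM in wild-type, and 7 of the 10 were called lower. Oligodendrocyte markers (6 of 12), granule cell markers (3 of 8) and astrocyte markers (4 of 11) were called lower as well, beside 5.47% of all genes. These counts are from the fit over all libraries. In the striatal libraries alone 1 thalamus, 1 granule cell, 1 astrocyte and no oligodendrocyte marker was called, beside 0.711% of all genes. The 3 granule cell markers called lower were Pax6, Zic1 and Zic2, while Cbln3 was at most 2.26 CPM in the striatal libraries. The astrocyte markers summed to 4151 to 4624 CPM in SCA3 and 3983 to 5657 CPM in wild-type. The wild-type library with the lowest Calb1, that of mouse 7267059, had the fewest projection neuron markers and the most thalamus markers (2183 CPM), and it had the highest Rgs8 and Homer3 of the striatal libraries. Over the 13 striatal libraries, with genotype means subtracted, the mean of the 5 genes went with the projection neuron markers (r 0.86, rho 0.82, and r 0.88 without the 2 libraries farthest out) and against the thalamus markers (r −0.69, rho −0.62, and −0.71) and the astrocyte markers (r −0.61, rho −0.61, and −0.54). In fits of the striatal libraries alone, added after the data had been seen, the Calb1 difference was 0.61 with no covariate (FDR 0.19), 0.27 with the projection neuron marker mean (FDR 0.9999) and 0.42 with the thalamus marker mean (FDR 0.51). The Itpr1 difference went from 0.49 to 0.08 and 0.22, and Gng13 changed sign, from 0.19 to −0.15 and −0.11. A genotype effect on the markers and a difference in dissection cannot be told apart here. The part of cell composition in these values was not tested further.

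**Figure D5:**
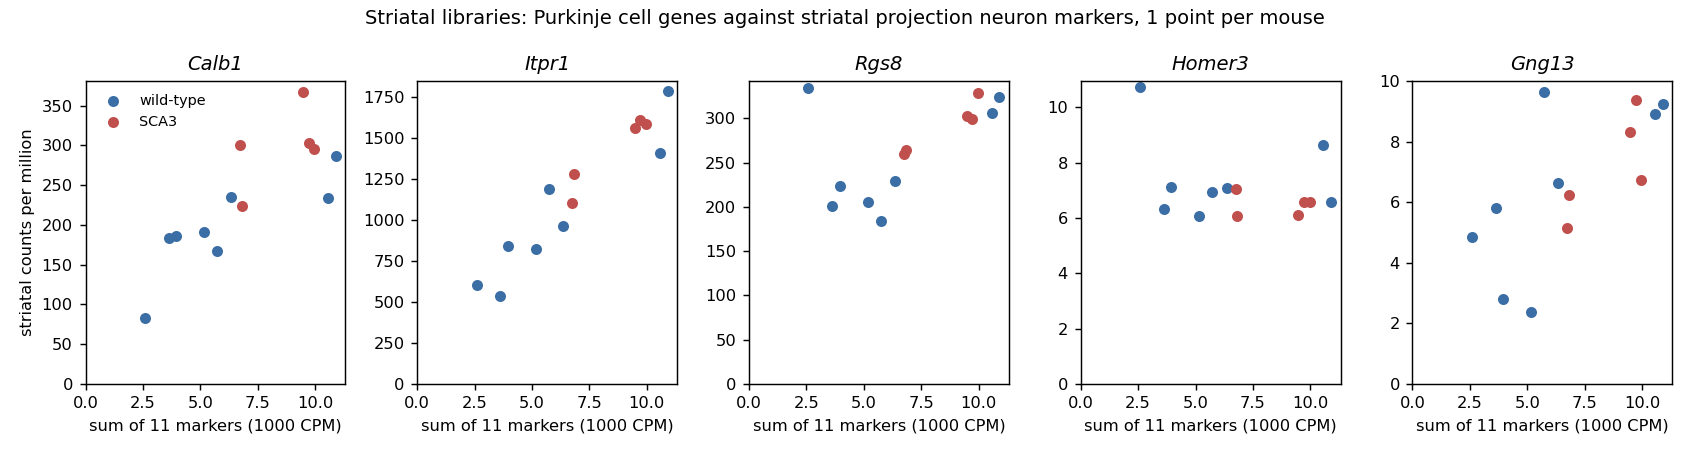
Striatal level of each of the 5 genes (CPM, y axes) against the summed level of 11 striatal projection neuron markers (CPM, x axes), 1 point per mouse, with wild-type in blue and SCA3 in red. Calb1 and Itpr1 rise with the markers, and the 5 SCA3 libraries lie in the upper part of the marker range (6746 to 9976 CPM).

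Some other genes known from Purkinje cells fell in striatum. Of 34 tested, 7 were lower in SCA3 and none higher, beside 5.47% of all genes lower and 2.07% higher. Among them were Grid2ip, a partner of the delta 2 glutamate receptor, at 5.37 ± 4.32 CPM in SCA3 and 20.9 ± 17.4 CPM in wild-type (log2 difference −1.96, FDR 0.0014), and Cacna1g at 49.1 ± 23.3 against 119.8 ± 60.2 CPM (−1.29, FDR 0.00033). Plcb4 (−1.33, FDR 0.0039) was lower as well and is also counted in the metabotropic glutamate pathway list, where 4 of 35 genes were lower, among them the scaffold Homer2 (−1.08, FDR 0.00044) and Calb2, which encodes calretinin (−2.46, FDR 0.0050). The wild-type standard deviations were large, 75.9 CPM on a mean of 92.4 CPM for Plcb4 and 60.8 CPM on 58.8 CPM for Calb2. Calb2 also belongs to the thalamus list. In the striatal libraries alone, 1 of the 34 was lower and 1 higher, with or without the thalamus marker mean as a covariate, and 1 of the 35 was lower. These fits called 0.509% of all genes lower and 0.202% higher without the covariate and 0.275% and 0.412% with it. Without each mouse in turn, 5 to 8 of the 34 were lower, beside 1.83% to 9.08% of all genes, and 0 to 1 higher, beside 0.477% to 5.74%. Only 4 were lower with limma-voom, with or without the mouse as a block (3.31% and 3.27% of all genes), 2 with libraries of RIN 7 or above (0.857%) and none in the number series of mouse 9083371 (0.154%). The 4 of 35 became 3, 2 and none in the same fits, and 3 of the 35 were called higher without wild-type mouse 9082857 and 1 without 9083371, where 5.74% and 4.78% of all genes were.

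Of the 25 tested G protein genes, Rgs20 (log2 difference 0.45, FDR 0.019) and Gpsm2 (0.35, FDR 0.024) rose in SCA3 striatum, and Rgs16 (−2.22, FDR 0.0078) and Gng2 (−0.80, FDR 0.0080) fell. These 2 calls each way stand beside 2.07% of all genes higher and 5.47% lower. Rgs16 is in the thalamus list too. Neither direction kept a call without SCA3 mouse 7267054 or 9083515, no gene was higher without wild-type mouse 7267058 or 9083373, and none lower without SCA3 mouse 7267056. With 1 mouse left out the calls ran from 0 to 3 higher and from 0 to 5 lower, beside 0.477% to 5.74% and 1.83% to 9.08% of all genes. Of 25 genes of cyclic GMP signalling and phosphatases 1 was called, and it was higher, beside 2.07% of all genes higher. This was Ppp2r2a, a regulatory subunit of protein phosphatase 2A, at 193 ± 18.2 against 150.3 ± 34.9 CPM (0.36, FDR 0.0029). Called higher were 6 without wild-type mouse 9082857, 5 without 9083371 and 2 without SCA3 mouse 9083514, beside 5.74%, 4.78% and 2.21% of all genes. In striatum no gene of these last 2 lists was called with only libraries of RIN 7 or above, or in the number series of mouse 9083371 alone. In the striatal libraries alone 1 of the 25 G protein genes was higher and none lower, and no gene of cyclic GMP signalling and phosphatases was called. With the projection neuron or the thalamus marker mean as a covariate neither list had a call (0.267% and 0.687% of all genes called). In brainstem 1 of the 34 other Purkinje cell genes was lower, beside 1.15% of all genes, and none higher. This was Aldoc (1204 ± 117.2 against 1535 ± 255.8 CPM, log2 difference −0.35, FDR 0.038), the aldolase known as zebrin II that astrocytes express as well, and it was named after its value was seen. The call was lost without any 1 of mice 7267056, 7267058, 9082857, 9083372, 9083513, 9083514 and 9083515, and with the quasi-likelihood test, limma-voom, library totals alone, RIN as a covariate, RIN of at least 7 or the number series of mouse 9083371 alone. In the same brainstems 3 of 11 astrocyte markers were called lower, and their sum was 2935 to 4708 CPM in SCA3 (median 3382) and 3320 to 7809 CPM in wild-type (median 5334). Their part in the Aldoc value was not tested. The other 3 lists had no call there in the fit over all libraries, but 1 G protein gene was lower in the brainstem libraries alone (1.84% of all genes) and 1 gene of cyclic GMP signalling and phosphatases was lower in the number series of mouse 9083371 (1.49%). In cortex none of the 4 lists had a call, in that fit or in any alternative run there.

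Across the regions together, the combined test of a genotype effect in any region called none of the 5 genes, beside 4.73% of all genes, with Calb1 nearest (unadjusted p 0.038, FDR 0.26). The test of whether the genotype effect depended on region called none either, beside 0.218% of all genes. Calb1 was again nearest (unadjusted p 0.018, FDR 0.38), with differences of −0.30, −0.23 and −0.04 in brainstem, cortex and cerebellum and 0.61 in striatum. For Itpr1, Rgs8, Homer3 and Gng13 the FDR of this test was 0.92 to 0.98. The Calb1 difference is thus not shown to depend on region at this threshold. In none of the 4 regions did the ranges of SCA3 and wild-type libraries separate for any of the 5 genes, which happened for 0.234% of all genes in cerebellum, 1.38% in brainstem, 0.251% in cortex and 0.655% in striatum.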

How the data were processed

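Poly-A RNA of the 53 brain libraries was sequenced by the authors without strand information. Per the labels and the study's methods, reads were trimmed with cutadapt 1.10, aligned uniquely to GRCm38 with STAR 2.3.0e and counted per RefSeq gene with HTSeq 0.6.1, ignoring strand. The deposited values are raw counts of the genes that passed the authors' mean of 4 CPM. No gene in the table has a mean log2 CPM under 2.01, a mean that is low for genes of a single region.

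Counts were normalised by TMM and fitted in edgeR 4.0.16 (R 4.3.3) with 8 groups of region and genotype, and contrasts were tested by likelihood ratio with Benjamini-Hochberg FDR over 12372 genes, at 0.05. Tests planned for 7 genes were run on the 5 in the table. The fits were tested on simulated data. Alternatives used DESeq2 1.42.0 and limma 3.58.1, other scalings and filters, covariates, subsets, and each mouse left out. Log2 CPM for correlations and marker means used a prior count of 2. The listed genes are named in full. Of other lists, the genes called in any region are named, at most 4 by smallest FDR, or the 2 with the smallest cerebellar FDR, and the 5 genes most like the mean of the 5, over cerebellum and over all libraries. Cbln3, Ttr, Ddx49 and Aldoc were added after their values were seen. A few genes that the rule would name are not reported here. The genes and lists were chosen with earlier results of these data known. Libraries of 1 mouse share the animal: deviations from group means correlated weakly between regions (mean r 0.09 to 0.186). Promoter windows and gene positions are from RefSeq (GRCm38.p6), exon lengths from GENCODE.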

Additional observations from a re-analysis of the deposited data

Results flagged for a closer look

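For each of the 5 genes, each group of 5 to 8 libraries was checked for a highest or lowest library whose gap to its neighbour was large for the group's range (Dixon's 95% limits). Of 40 groups 3 passed that limit, and chance alone gives about 1 in 20. All 3 are in brainstem. Calb1 was 195.7 CPM in wild-type mouse 7267059, with the next library at 110.5 CPM, and Cbln3 was 2.70 CPM in that library. Itpr1 was 471.8 CPM in wild-type mouse 9083373, with the next at 251.5 CPM, and Gng13 was 10.26 CPM in SCA3 mouse 7267054, with the next at 6.00 CPM. These last are the 2 brainstem libraries with high Cbln3, and the part of granule cell RNA in their values was not tested beyond the fit without both.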

How the results depend on the processing

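The values of the 5 genes above were recomputed under the processing alternatives that apply to each, out of 27 fixed earlier and 5 added after the data were seen (the covariate fits and the brainstem fit without 2 libraries). Over these, 1460 values of single genes kept their direction and side of FDR 0.05, 53 changed direction, 5 gained a call and 2 lost one. Of the counts of called genes among the 5, 182 held and 2 moved: the count in cerebellum went from 0 to 1 with the oligodendrocyte covariate, and that in striatum was 0 to 1 with each mouse left out. The counts of the gene lists are not in this tally, and only some of their movements are given beside each list.

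The values that changed direction were as follows, none of them called. For Itpr1 in brainstem the log2 difference was 0.0734 with limma-voom, 0.0123 with library totals alone, 0.0048 with the number series as covariate and 0.1264 without the 2 libraries of high Cbln3. With RIN as covariate, Rgs8 was −0.0242 and Gng13 −0.0225 in brainstem, and Gng13 in wild-type brainstem over striatum was 0.008. With RIN of at least 7 Gng13 was −0.1845 in striatum. In the number series of mouse 9083371 alone, Calb1 was 0.2201, Homer3 −0.3068 and Gng13 −0.3855 in brainstem, Rgs8 −0.0327 and Gng13 −0.3337 in cortex, and Gng13 −0.2534 in striatum. With the other Purkinje cell genes as covariate, Calb1 was 0.0098, Itpr1 0.011 and Homer3 0.019 in cerebellum. Gng13 in striatum was −0.1484 with the projection neuron covariate and −0.1069 with the thalamus covariate. The cause was not tested.

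With each mouse left out, the cerebellar differences ranged from −0.0822 to 0.0173 (Calb1), −0.1388 to 0.0052 (Itpr1), −0.0857 to 0.0261 (Homer3), −0.2305 to −0.1217 (Rgs8) and −0.2248 to −0.0878 (Gng13). In brainstem they ranged from −0.4977 to −0.0994 (Calb1), −0.1991 to 0.3088 (Itpr1), −0.0908 to 0.2244 (Rgs8), −0.0949 to 0.1668 (Homer3) and −0.0693 to 0.28 (Gng13), and in cortex from −0.3241 to −0.0936 (Calb1), −0.0191 to 0.1707 (Itpr1), −0.0742 to 0.1095 (Rgs8), −0.0566 to 0.076 (Homer3) and −0.0717 to 0.159 (Gng13). In striatum the ranges were 0.4915 to 0.7042 (Calb1), 0.3953 to 0.6531 (Itpr1), 0.1598 to 0.284 (Rgs8), −0.2298 to −0.1055 (Homer3) and 0.0702 to 0.3026 (Gng13). Gng13 in wild-type brainstem over striatum ranged from −0.3 to 0.0013.

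Libraries of 1 mouse were paired through a replicate block. With the mouse as a random block in limma-voom (correlation 0.14), none of the 5 genes was called in any SCA3 comparison and 23 of 30 region pairs were, Itpr1 in brainstem was 0.0747 and Rgs8 in cortex −0.003. With the mouse as a fixed block, the smallest FDR for region dependence was 0.346 (Calb1).

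The 4 CPM limit was set on the mean over all regions, so Purkinje cell genes with little expression elsewhere are the least covered. The cerebellar intervals given above rest on 6 SCA3 and 7 wild-type mice, and how reads on exon bases shared with opposite-strand neighbours were counted for Homer3 and Gng13 was not tested.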
